A study of Homo sapiens with 41 samples.

Results

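The regions described here are stretches of the genome of MDA-MB231 cells that were accessible in cells with a control hairpin and not called accessible after knockdown of HDAC6. The assay was ATAC-seq, in which a transposase cuts open chromatin. The 6 peak lists of the control hairpin (shCtrl, 3 lists) and of the HDAC6 hairpin (shHDAC6, 3 lists) were merged over chromosomes 1 to 22 and X. A region was kept when all 3 shCtrl lists and no shHDAC6 list had a peak there. This left 521 lost regions, 0.957% of 54420 merged regions and 2.66% of the 19560 with a peak in all 3 shCtrl lists. The regions were chosen by these 6 lists of peaks, so their loss after knockdown is a description and was not tested. By the reverse rule 186 regions were gained, 1.03% of those with a peak in all 3 shHDAC6 lists. With lists cut to equal length the numbers were closer, 342 lost and 301 gained.

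MDA-MB231 is a triple-negative breast cancer line of mesenchymal character. The shCtrl and shHDAC6 groups carry a control hairpin and a hairpin against HDAC6, with 3 ATAC and 2 PolII libraries each. Parental cells without a hairpin (control) or given 5 µM Nexturastat A, an HDAC6 inhibitor, for 2 days (inhibitor) have 3 ATAC, 2 PolII and 2 pan-acetyl histone H3 libraries each. HDAC6 binding has 2 ChIP lists each for control, inhibitor and shHDAC6 cells and 2 CUT&Tag lists for control cells. Each library came from 100000 cells, and the labels give the hairpin only as shHDAC6, without its sequence or how many were used. Nothing in the labels marks the replicates as independent cultures, and a p-value here reflects the spread among the libraries at hand, possibly only technical.

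HDAC6 is a deacetylase best known in the cytoplasm, where it removes acetyl groups from tubulin and cortactin. Chromatin opens at gene starts, which are bound by the general transcription machinery, and at distal elements such as enhancers, which lie inside introns or between genes and depend more on the factors of one cell type. In mesenchymal breast cancer lines many distal elements carry sites for AP-1, a dimer of FOS and JUN family proteins that binds the letters TGANTCA. PolII ChIP with an antibody to the largest subunit of RNA polymerase II marks transcribed starts and also many active enhancers.

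HDAC6 itself kept an accessible start in 3 of 3 shCtrl and 3 of 3 shHDAC6 lists, and a PolII peak there in 2 of 2 lists of both groups. A hairpin acts on the transcript, so this neither shows nor excludes the knockdown. Among 8 genes fixed as markers of the line, VIM, AXL, ITGB1, CAV1 and FOSL1 had a start open in all 3 shCtrl lists, and CD44, EGFR and PLAU in none of them, although CD44 and EGFR were open in 3 of 3 parental control lists. Of 8 luminal markers only ERBB3 was open in all 3 shCtrl lists, of 8 leukocyte markers only SPI1, and of 8 neuron markers 5. The luminal markers GATA3, PGR and FOXA1 were open in 2 of 3 shCtrl lists. The 6 hairpin ATAC lists held 25878 to 32998 peaks, with means of 31586 ± 2342 for shCtrl and 28889 ± 3122 for shHDAC6 (SD, n = 3 each). The two-sided exact permutation p was 0.2, and this design cannot go below 0.1. The groups overlapped, since shHDAC6 list 1 held 32111 peaks and shCtrl list 3 held 28883. Lists of the same group shared little more than lists of different groups: the mean Jaccard index, shared over all regions, was 0.518 over 6 pairs within groups and 0.505 over the pairs between them. Pairs of shCtrl lists had 0.508 to 0.514 and pairs of shHDAC6 lists 0.522 to 0.529. Pairs between groups had 0.489 to 0.524, so the shCtrl pairs lay within that range.

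The promoter sequences of 6 lost regions at a gene start are shown first, because they have the highest mean percentile of fold among lost protein-coding starts whose promoter window in the RefSeq table overlaps the lost region. KIF13B and BPI, with percentiles of 46.3 and 45.2 against 44.1 for SMPDL3B, have no such window. They are the 300 bases from 250 before to 50 after the start, in GRCh38.p14 and credited to RefSeq, written 5′ to 3′ on the strand of the gene, with matches to 12 searched motifs in capitals on either strand. FAM107B lies on the minus strand at chr10:14556131-14556430, ASIC1, an acid-sensing ion channel, on the plus strand at chr12:50070346-50070645, and EGR4, an early growth response transcription factor, on the minus strand at chr2:73293499-73293798. SVIL, the actin-binding protein supervillin, lies on the minus strand at chr10:29634922-29635221, C11orf97 on the plus strand at chr11:94512211-94512510, and SMPDL3B, a phosphodiesterase, on the plus strand at chr1:27934750-27935049. The capitals mark TEAD letters (GGAATG, once in FAM107B and once, as CATTCC, in SMPDL3B), RUNX letters (TGTGGT, in ASIC1), SP/KLF letters (GGGCGG or CCGCCC, in EGR4 and C11orf97) and NF-Y letters (CCAAT, in SMPDL3B). SVIL has no match.
FAM107B: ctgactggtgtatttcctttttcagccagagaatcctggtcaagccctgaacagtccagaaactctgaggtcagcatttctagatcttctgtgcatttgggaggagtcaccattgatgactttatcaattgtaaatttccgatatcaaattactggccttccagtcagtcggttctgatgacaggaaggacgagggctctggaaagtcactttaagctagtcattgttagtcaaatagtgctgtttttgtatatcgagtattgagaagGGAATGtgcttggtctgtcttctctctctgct
ASIC1: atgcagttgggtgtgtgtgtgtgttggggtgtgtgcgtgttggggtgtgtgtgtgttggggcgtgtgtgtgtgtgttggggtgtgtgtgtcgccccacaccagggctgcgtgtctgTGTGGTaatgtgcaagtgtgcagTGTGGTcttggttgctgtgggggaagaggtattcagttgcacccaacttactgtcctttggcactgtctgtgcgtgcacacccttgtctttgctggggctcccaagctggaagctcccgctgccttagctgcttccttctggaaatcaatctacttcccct
EGR4: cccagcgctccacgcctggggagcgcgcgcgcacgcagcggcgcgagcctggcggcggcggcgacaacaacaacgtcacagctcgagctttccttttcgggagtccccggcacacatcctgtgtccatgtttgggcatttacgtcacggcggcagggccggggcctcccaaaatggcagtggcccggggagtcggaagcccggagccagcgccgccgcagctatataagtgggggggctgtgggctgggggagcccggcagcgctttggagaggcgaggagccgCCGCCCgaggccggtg
SVIL: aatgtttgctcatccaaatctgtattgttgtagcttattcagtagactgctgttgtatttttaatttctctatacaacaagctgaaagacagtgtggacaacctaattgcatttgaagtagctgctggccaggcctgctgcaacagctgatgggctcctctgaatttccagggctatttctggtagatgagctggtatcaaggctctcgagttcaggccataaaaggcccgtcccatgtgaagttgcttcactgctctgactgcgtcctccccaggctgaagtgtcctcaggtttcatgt
C11orf97: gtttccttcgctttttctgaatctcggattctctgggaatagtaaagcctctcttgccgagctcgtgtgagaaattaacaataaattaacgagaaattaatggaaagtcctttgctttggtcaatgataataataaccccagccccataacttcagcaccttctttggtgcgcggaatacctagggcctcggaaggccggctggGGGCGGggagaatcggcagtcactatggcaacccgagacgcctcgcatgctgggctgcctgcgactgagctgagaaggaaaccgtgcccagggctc
SMPDL3B: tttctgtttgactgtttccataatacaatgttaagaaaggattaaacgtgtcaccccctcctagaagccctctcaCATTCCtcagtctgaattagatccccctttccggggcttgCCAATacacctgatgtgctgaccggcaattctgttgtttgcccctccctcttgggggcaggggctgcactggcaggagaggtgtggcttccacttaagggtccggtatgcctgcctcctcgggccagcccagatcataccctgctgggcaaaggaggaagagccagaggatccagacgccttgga

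The windows differed widely in base composition: GC content was 43.0% in FAM107B, 46.3% in SVIL and 71.0% in EGR4, and EGR4 had 35 CpG dinucleotides against 3 in SVIL. Promoter windows of the reference table overlapped 35 of the 521 lost regions, with 42 windows in all. Their median GC content was 59.8% (lowest 28.7%, highest 80%), against 65.7% for the 12842 windows in regions of all 3 shCtrl lists and 58.7% for all 34961 windows.

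AP-1 letters (TGANTCA, counted on both strands) were in 9 of the 42 windows, 21.4%, against 3.81% of the windows open in all 3 shCtrl lists and 7.68% of all windows. The 9 sites are shown because AP-1 had the largest ratio to open windows among the 12 motifs, and they were chosen after these counts were seen. Each is given with up to 12 bases on either side and the 7 letters in capitals, in GRCh38.p14. KAZN lies at chr1:14929653-14929683 (plus strand), LENEP at chr1:154993446-154993476 (plus), LOC107985362 at chr1:233707595-233707625 (minus), C4orf51 at chr4:145680078-145680108 (plus) and UST-AS2 at chr6:149032794-149032824 (minus). AMPD3 lies at chr11:10455067-10455097 (plus), CYFIP1 at chr15:22980332-22980362 (minus), LARP6 at chr15:70853769-70853796 (minus, cut at the end of the window) and LOC137778871 at chr19:52601076-52601106 (plus).
KAZN: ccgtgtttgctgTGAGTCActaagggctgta
LENEP: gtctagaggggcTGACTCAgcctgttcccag
LOC107985362: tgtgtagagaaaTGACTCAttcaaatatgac
C4orf51: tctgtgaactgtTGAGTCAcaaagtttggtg
UST-AS2: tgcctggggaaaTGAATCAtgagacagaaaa
AMPD3: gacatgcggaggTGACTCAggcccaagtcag
CYFIP1: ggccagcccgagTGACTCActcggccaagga
LARP6: ggcagagggggtTGAGTCAgccccgccg
LOC137778871: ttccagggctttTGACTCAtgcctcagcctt

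Seen by region, the share with AP-1 letters was lower where more shHDAC6 lists still had a peak. It was 9 of 35 (25.7%) for lost regions, 15 of 131 (11.5%) for regions in 1 shHDAC6 list, 36 of 485 (7.42%) for 2 lists and 363 of 7622 (4.76%) for 3 lists. Gained regions had it in 5 of 35 (14.3%). GC content also differed between the sets, with a median of 59.0% in lost regions and 65.3% in all shCtrl regions. Among regions under 60% GC the share was 5 of 18 (27.8%) in lost and 8.38% of 2136 in all shCtrl regions, and at 60% GC or over it was 4 of 17 (23.5%) against 3.98% of 6137. Of the other 11 motifs, 7 were in a smaller share of lost windows than of open windows. SP/KLF letters (GGGCGG) were in 50% of lost, 71.7% of open and 45.0% of all windows, and NF-Y letters (CCAAT) in 19%, 37.4% and 34.6%. ETS letters (CCGGAAG) were in 7.14%, 20.2% and 10.3%, the NRF1 motif in 2.38%, 12.5% and 5.80%, and the E-box CACGTG in 2.38%, 9.78% and 7.27%. The CRE letters TGACGTCA were in 0, 3.26% and 1.85%, and TATAAA in 2.38%, 4.62% and 11.5%. The remaining 4 were in a larger share of lost than of open windows: TEAD letters were in 11.9%, 10.5% and 14%, RUNX letters in 9.52%, 9.04% and 13.1%, the FOX letters TGTTTAC in 4.76%, 2.21% and 3.42%, and the YY1 letters AAGATGGC in 7.14%, 5.54% and 2.89%. All 12 were counted on both strands, and letters alone do not show that a factor binds. Most lost regions lie away from gene starts, and their sequence was not used here.

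Lost regions were weak in the shCtrl libraries. The deposited fold over background and −log10 p of a peak together give the reads piled up at its summit, which were recovered as whole numbers. Lost regions had medians of 9, 9 and 8 reads in shCtrl lists 1, 2 and 3 (lowest 6 in each, highest 28, 31 and 28), against 16, 17 and 14 for all regions of the 3 shCtrl lists. A call needed 6 reads in 5 of the 6 lists, and 5 in shHDAC6 list 3, where the local background equals that of the genome. The median fold over background was 4.76, 4.82 and 4.75 in lost regions and 6.15, 6.25 and 6.02 in all shCtrl regions. The median merged width was 862 bp in lost regions against 1196 bp. These widths cannot be compared, since the merge also takes in shHDAC6 peaks, which lost regions lack by the rule. A wider merged region also has more room to overlap a peak of another list, and this was not tested.

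A larger share was lost where reads were few (the plot of reads at the summit). Of regions with a mean under 7 reads over the 3 shCtrl lists, 65 of 284 (22.9%) were lost, and of those with 7 to 8 reads 127 of 710 (17.9%). The share was 3.68% at 10 to 12 reads, 1.07% at 12 to 15 and 0.347% at 15 to 20. It was 4 of 4183 (0.0956%) at 20 to 30 reads and 0 of 2451 above that.

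**Figure D1:**
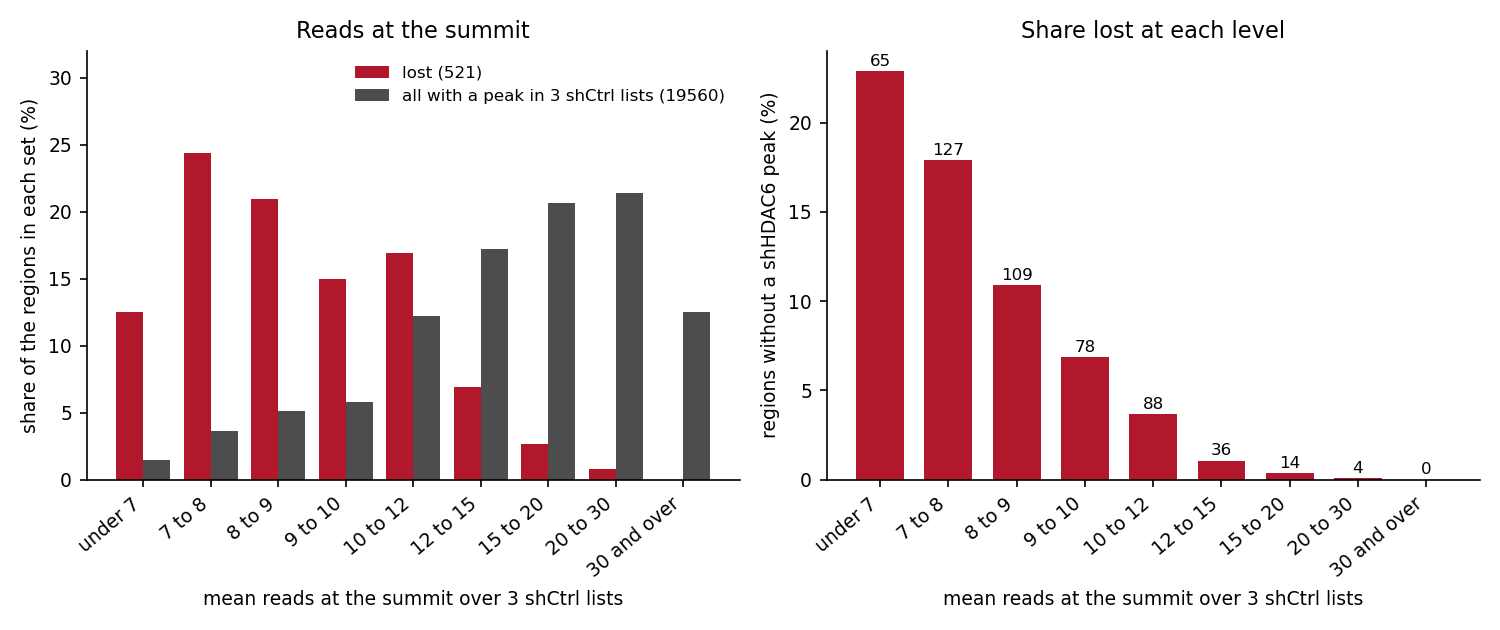
Reads at the summit of lost regions and of all regions with a peak in the 3 shCtrl ATAC lists. The left panel gives the share of each set (%) in each class of mean reads over 3 shCtrl lists, and the right panel the share of all regions of that class that had no shHDAC6 peak (%), with the number lost above each bar. Lost regions sit at the low end, and the share lost goes from 22.9% in the lowest class to 0 in the highest.

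The calling floor bears directly on these regions. Had a lost region kept its shCtrl signal, scaled by the genome background of each list, its median of expected reads would have been 9.44, 8.10 and 7.03 in shHDAC6 lists 1, 2 and 3, against medians of 7, 7 and 6 needed for a call. The expected reads reached the number needed in all 3 lists for 388 of 521 regions, 1.5 times that number for 3, and 2 times for none. The rule kept only regions whose shCtrl reads passed the floor in all 3 lists, so reads expected from them can be too high. A lower signal and a shortfall of reads near the floor cannot be told apart for these regions. The regions one step outside the rule differed little: regions with a peak in 1 shHDAC6 list (1216) had a median of 9.33 mean reads against 8.33 in lost regions, a mean fold of 5.10 against 4.91 and a mean percentile of fold within the list of 41.8 against 37.6. Regions with a peak in 2 shCtrl lists and no shHDAC6 list (2126) had a median of 7.5 reads and percentile 31.1.

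The count follows the threshold. With at least 10 reads in each shCtrl list, a limit chosen after seeing the data, 84 regions were lost of 14064 (0.597%), 25 of them (29.8%) at a gene start against 59.7% of all such regions. Of the 342 lost with the strongest 25878 peaks of every list, 215 were among the 521. Where a shHDAC6 peak within 500 bp also counted, 500 of the 521 were still lost. At a −log10 q of 5 or more 212 regions were lost, and they overlapped only 13 of the 521. Leaving out 1 list loosens the rule by construction and gave 746 (without shHDAC6 list 2) to 1472 regions (without shCtrl list 3).

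The 20 lost regions of highest mean percentile were led by regions inside genes. GRIN3A, a subunit of glutamate receptors of the NMDA type, had 14, 10 and 10 reads in shCtrl lists 1, 2 and 3 and no peak in any shHDAC6 list, at chr9:101704942-101705717. Its fold was 7.51 ± 1.24 (SD, n = 3) and its mean percentile 80.9, the highest of all lost regions. TTC14 (chr3:180612235-180613014) had 10, 12 and 9 reads, a fold of 7.31 ± 0.71 and percentile 80.3. KALRN, the guanine nucleotide exchange factor kalirin (chr3:124550073-124551207), had 12, 10 and 13 reads, a fold of 6.58 ± 0.41 and percentile 72.6. These 3 regions lie inside the gene, 32930, 10072 and 33451 bp from the nearest protein-coding start. Their reads were below the median of all shCtrl regions in every list.

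LAMA2, the laminin alpha 2 chain of basement membranes, was the gene with most lost regions. All 3 lie inside it and are neighbours in the order of shCtrl regions, and they are 3 of the 4 shCtrl regions in or within 50 kb of the gene. The strongest (chr6:129318291-129319036) had 12, 8 and 11 reads and a fold of 6.70 ± 1.03. Another (chr6:129209433-129210077) had 10, 6 and 7 reads and the last (chr6:129440471-129441285) 6, 7 and 7 reads. Both of these thus stood at the floor of the call in 1 list each.

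The next regions lay near ATP10A, a phospholipid flippase (12, 9 and 11 reads, 1598 bp outside the gene, percentile 71.5), and UBE3D, a ubiquitin ligase (9, 9 and 10 reads, 96489 bp outside, percentile 71.4). The region of CBLB, a ubiquitin ligase that restrains receptor signalling, had 12, 9 and 7 reads and lay 8088 bp outside the gene. BDNF, a neurotrophin, had 8, 10 and 8 reads inside the gene, 5645 bp from the nearest start. The lowest of the 3 shCtrl lists was at 7 to 9 reads in each of these regions. ADGRG7, FAM241A, ZNF706, OR7E24 and ABI3BP were the other genes within 100 kb, with 6 to 12 reads in any shCtrl list. The remaining 6 of the 20 regions had no protein-coding gene within 100 kb. One of these reached 18 reads in shCtrl list 2 and only 8 and 9 in the others, so its mean fold of 7.17 carries an SD of 3.38.

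Lost regions were mostly distal. Only 52 (9.98%) lay within 1 kb of a protein-coding gene start, against 48.1% of all shCtrl regions, 242 (46.4%) lay elsewhere inside a gene against 23.6%, and 227 (43.6%) between genes against 28.2%. The median distance to a protein-coding start was 41121 bp in lost and 1949 bp in all shCtrl regions, and 144 lost regions (27.6%) were over 100 kb from one, against 9.60%. Gained regions were at a gene start in 24.2%. Starts came from the promoter table, which holds 79.2% of protein-coding genes and none on chromosome 8, and for the others both gene ends were taken.

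Position and strength are linked, since gene starts are stronger, so the share lost was read within classes of strength (the plot by position and strength). At a mean percentile of 25 to 50, 25 of 1624 regions at gene starts were lost (1.54%), 134 of 1433 within genes (9.35%) and 144 of 1519 between genes (9.48%). At 50 to 75 it was 2 of 2749 (0.0728%), 48 of 1779 (2.70%) and 62 of 2282 (2.72%). In both classes distal regions were lost more often than starts of the same percentile, and regions within and between genes at nearly the same rate. Below 25 the shares were 3.23%, 11.2% and 5.71%. The classes are of fold, not of reads, so they do not match the read number.

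**Figure D2:**
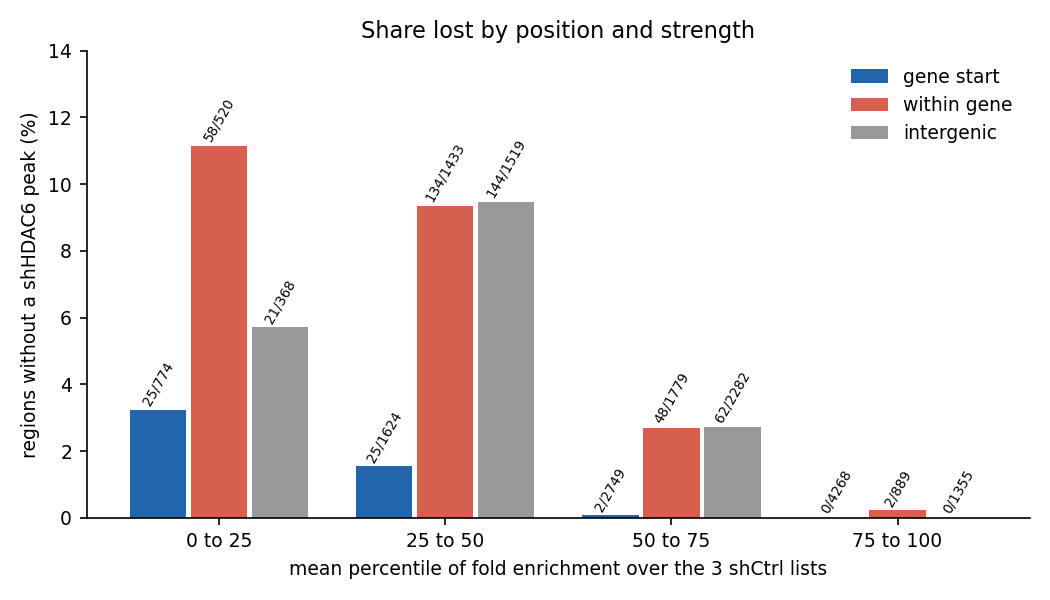
Share of regions with a peak in all 3 shCtrl ATAC lists that had no shHDAC6 peak (%), by class of mean percentile of fold and by position. The fraction above each bar is lost regions over all regions of that class. Starts (blue) are lost less often than regions within genes and between genes in the classes below 75.

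At gene starts, FAM107B had the highest percentile, 59.8, with 12, 10 and 7 reads, a fold of 6.09 ± 1.31 and peaks in 3 of the 26 lists of other assays or of parental cells. ASIC1 had 17, 16 and 16 reads and percentile 55.7, and EGR4 15, 13 and 16 reads and percentile 49.7. Both had more reads than the median lost region in every shCtrl list. SVIL had 7, 7 and 10 reads, C11orf97 10, 9 and 6, and SMPDL3B 14, 13 and 11. The other 9 of the 15 highest lost starts were KIF13B, a kinesin (7, 7 and 8 reads), BPI, a neutrophil antibacterial protein (11, 8 and 7), OPN5, an opsin (6, 8 and 7), CYFIP1, a subunit of the WAVE complex that drives actin branching (11, 10 and 9), SLC9C1 (8, 7 and 9), PLA2G7, which degrades platelet-activating factor (10, 10 and 10), C4orf51 (6, 8 and 6), MUC8 (15, 16 and 12) and HILPDA, a lipid droplet protein induced by hypoxia (15, 20 and 15). In CYFIP1, PLA2G7 and HILPDA a shHDAC6 ATAC peak lay within 500 bp of the lost region. OPN5, PLA2G7, MUC8 and HILPDA had the start 833 to 877 bp away, near the edge of the 1 kb window.

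No 3 lost regions lay within 100 kb steps of each other, the rule set for a cluster, and 12 pairs held 24 regions (4.61%). How many pairs or runs the same number of shCtrl regions would give was not computed, so a tendency to cluster was not tested. With steps of up to 250 kb, 9 regions (1.73%) fell in groups of 3 or more. In the order of the 19560 shCtrl regions, 482 lost regions had no lost neighbour, 18 runs held 2 and 1 run, in LAMA2, held 3. Pairs with both regions inside 1 gene included those in GALNT2, which starts O-linked glycosylation (11, 9, 9 and 11, 8, 10 reads), KIAA1549 (16, 13, 12 and 12, 9, 8 reads) and TMEM74 (6, 7, 7 and 8, 7, 8 reads). Other pairs included regions nearest to different genes, such as DSG2 with B4GALT6 and ROR1 with UBE2U, and a region inside ZNF608 with another 41498 bp outside it. Among chromosomes the share lost ran from 0 of 168 on chromosome 21 and 8 of 625 on chromosome 14 to 4.31% of 255 on chromosome 18.

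Genes near lost regions were described with 16 lists of genes. A lost region lay in or within 50 kb of 765 of 16832 protein-coding genes that had any shCtrl region there (4.54%). Of the growth factors and receptors 4 of 24 had one, namely FGF5, MET, PDGFC and IGF1R, of NF-kB and cytokine genes 2 of 20 (CXCL2 and NFKB2), of tubulin, cilium and motor genes 2 of 27 (DCTN1 and CTTN), and of oncogenes and tumour suppressors 2 of 27 (CDK6 and NOTCH1). One gene each was near a lost region among 21 AP-1 and YAP/TEAD genes (FOSB), 20 mesenchymal and matrix genes (ZEB2), 33 adhesion and axon guidance genes (ROBO2), 21 TGF-beta and BMP genes (TGFBR2), 22 Wnt genes (WNT3) and 43 developmental transcription factors (GLI2). None was near any of 18 epithelial and luminal genes, 18 interferon and antigen presentation genes, 28 deacetylases, acetyltransferases and acetyl readers, 23 ribosome and respiration genes, 16 leukocyte or 15 neuron genes. These counts are descriptions, and no list was tested.

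The region near MET, the receptor of hepatocyte growth factor, had 8, 8 and 6 reads and lay 40464 bp outside the gene (chr7:116630480-116631732). It had a peak in 10 of the 26 other lists, including 3 of 3 parental control and 3 of 3 inhibitor ATAC lists. FGF5, a fibroblast growth factor, had 9, 12 and 11 reads at a region 38867 bp from its start and nearer to CFAP299, which was also open in 3 of 3 control and 3 of 3 inhibitor lists. PDGFC, a platelet-derived growth factor, had 7, 6 and 7 reads at a region inside the gene, 2148 bp from its start, which was open in 0 of 3 control lists. The region of IGF1R, the receptor of insulin-like growth factor 1, had 6, 6 and 9 reads and was open in 1 of 3 control lists.

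CXCL2, a neutrophil chemokine, had 8, 9 and 7 reads at a region 34675 bp from its start and inside MTHFD2L, and NFKB2 7, 8 and 7 at a region inside its neighbour GBF1. DCTN1, the largest subunit of the dynein activator dynactin, had its start at the lost region (8, 9 and 8 reads, chr2:74391216-74392194). CTTN, which encodes cortactin, a substrate of HDAC6, had 9, 11 and 11 reads at a region 45484 bp from its start, inside SHANK2. CDK6, a kinase of the cell cycle, had 9, 9 and 6 reads inside the gene, and NOTCH1, a receptor, 18, 18 and 13 reads inside the gene, 5438 bp from a start. GLI2, a transcription factor of Hedgehog signalling, had 11, 11 and 7 reads 5617 bp outside the gene. ZEB2, a repressor of epithelial genes, had 9, 7 and 6 reads, ROBO2 10, 8 and 9, and TGFBR2, a TGF-beta receptor, 10, 9 and 9, each inside the gene. The region assigned to FOSB (17, 15 and 17 reads) lies at the start of RTN2, 29098 bp from that of FOSB, and the region of WNT3 (15, 9 and 11 reads) inside WNT9B.

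Most lost regions were called open in at least 1 of the 6 parental ATAC lists. In all 3 control lists 141 of 521 had a peak, against 13202 of 19560 shCtrl regions. The parental lists were longer, with 42113 to 79666 peaks against 25878 to 32998 in the hairpin lists. In parental control cells 40.5%, 51.2% and 55.1% of the 521 had a peak in ATAC lists 1, 2 and 3, against 73.5%, 86.6% and 88.7% of all shCtrl regions, and with the inhibitor 42.2%, 59.3% and 58.5% against 75.7%, 91.3% and 89.7%. Of the 521, 434 (83.3%) had a peak in at least 1 of these 6 lists, 125 (24.0%) in all 6 and 87 (16.7%) in none. Of all shCtrl regions 63.4% were in all 6 and 1.78% in none. Compared only with regions away from gene starts at a percentile of 25 to 50, the gap was smaller: 43.9%, 52.2% and 56.1% of 278 lost regions were in control lists 1, 2 and 3, against 50%, 66.8% and 72.7% of 2952 (the plot of peaks by list).

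**Figure D3:**
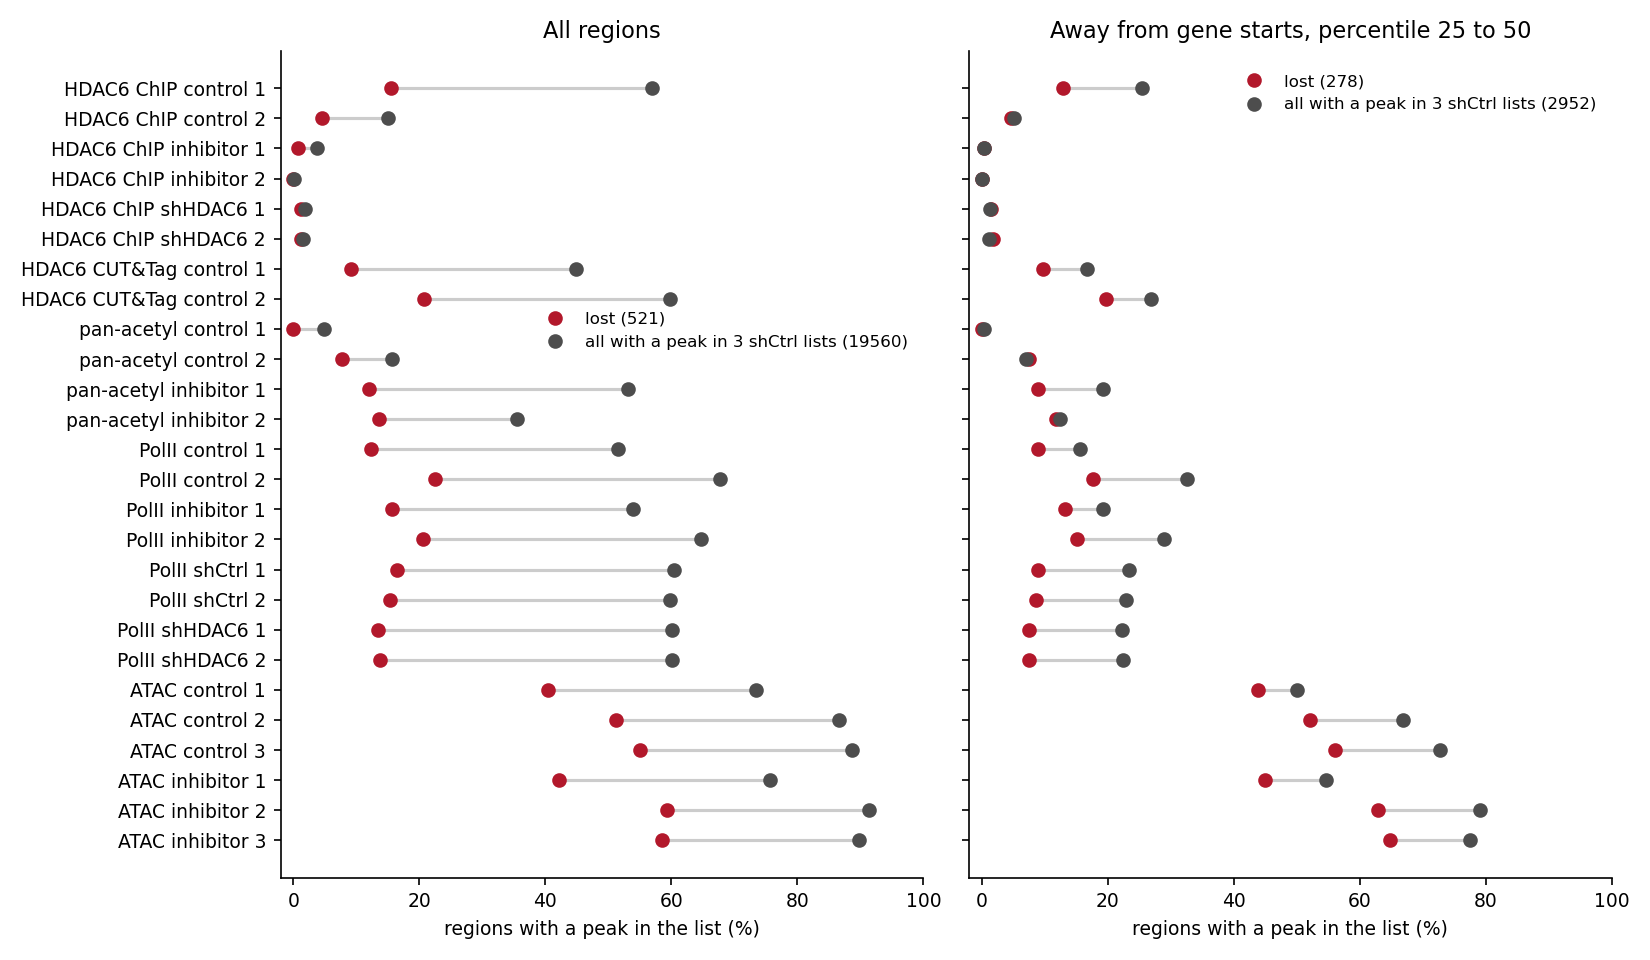
Share of regions with a peak in each of the 26 lists that the choice of regions did not use (%), for lost regions (red) and all regions with a peak in 3 shCtrl ATAC lists (grey). The left panel holds all regions, the right panel those away from gene starts at a mean percentile of 25 to 50. Lost regions lie lower in nearly all lists, and the gap narrows in the right panel.

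PolII, pan-acetyl and HDAC6 peaks were sparse at lost regions. PolII peaks covered 16.5% and 15.4% of them in the shCtrl lists, against 60.5% and 59.8% of all shCtrl regions. At the 52 gene starts the shares were 63.5% and 61.5% against 94.0% and 93.6%, and away from starts at percentile 25 to 50 they were 8.99% and 8.63% against 23.4% and 22.9%. HDAC6 ChIP peaks in control cells covered 15.5% (CST antibody) and 4.61% (Novus antibody), against 57.0% and 15% of all shCtrl regions, and HDAC6 CUT&Tag peaks 9.21% and 20.7%, against 44.8% and 59.7%. Away from starts at percentile 25 to 50 the gap was smaller, with HDAC6 ChIP at 12.9% (CST) against 25.5% and 4.68% (Novus) against 5.22%. HDAC6 CUT&Tag peaks there covered 9.71% and 19.8%, against 16.7% and 26.8%. Pan-acetyl peaks covered 0 of 521 in control list 1, which held 1418 peaks in all, and 7.68% in control list 2, against 4.88% and 15.7% of all shCtrl regions. In the inhibitor lists they covered 12.1% and 13.6%, against 53.2% and 35.5%. Away from starts at percentile 25 to 50 the pan-acetyl shares were close in control list 2 (7.55% against 7.08%) and inhibitor list 2 (11.9% against 12.5%), and apart in inhibitor list 1 (8.99% against 19.3%). The peak names of HDAC6 CUT&Tag list 2 and of HDAC6 ChIP inhibitor list 2 carry prefixes that elsewhere mark hairpin or shCtrl libraries, and both were kept as labelled. Of the 521, 43 (8.25%) had a peak in none of the 26 other lists, against 0.803% of all shCtrl regions.

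HDAC6 peaks in 3 or 4 of the 4 control lists marked 11 lost regions, 10 in 3 lists (1.92%) and 1, DCTN1, in 4 lists (0.192%), against 30.3% and 7.72% of all shCtrl regions. Of all shCtrl regions 48.1% are at gene starts, against 9.98% of lost regions. HDAC6 ChIP (CST) covered 83.4% of all shCtrl regions at starts and 32.4% away from them. No such share by position is given here for 3 or 4 lists. The 11 lost regions lay at or near DCTN1, DNPEP, EXOC6, AARS1, CYP1B1, RASGRF2, HIBADH and ITPKB, and over 100 kb from a gene for 3 regions. The region inside AARS1, an alanyl-tRNA synthetase, 598 bp from the start of EXOSC6, had 17, 18 and 22 reads, a fold of 3.73 ± 0.85 and a percentile of 10.9. The lost regions with peaks in most of the 26 other lists were DCTN1 (20), PACSIN3 (19), KIF13B (18), RTN2 (18) and ACAP3, an Arf GTPase-activating protein (18). PACSIN3 had 19, 15 and 15 reads and ACAP3 23, 29 and 22 reads, with folds of 4.47 ± 0.59 and 2.96 ± 0.41. A shHDAC6 ATAC peak lay within 500 bp of the lost region in PACSIN3, DNPEP and AARS1. The first 4 were gene starts, and the ACAP3 region lay inside the gene, 2419 bp from its start, with many reads and a low fold (percentile 0.693).

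PolII after knockdown was measured in libraries that the choice of regions did not use. Of 78 lost regions with a PolII peak in both shCtrl lists, 13 (16.7%) had none in either shHDAC6 list, against 1.7% of the 11558 regions of all shCtrl ATAC lists with such a peak. The share stepped with the ATAC lists: 18 of 250 (7.20%) for regions in 1 shHDAC6 ATAC list, 32 of 787 (4.07%) for 2 and 133 of 10443 (1.27%) for 3. Among regions away from gene starts with an ATAC percentile under 50, it was 9 of 38 (23.7%), 12 of 102 (11.8%), 19 of 224 (8.48%) and 41 of 663 (6.18%) for 0, 1, 2 and 3 lists. PolII peaks were also weaker at lost regions, with a median percentile of 41.2 against 71.0 at regions in 3 shHDAC6 ATAC lists. Under PolII percentile 25 the share was 4 of 13 (30.8%) against 75 of 658 (11.4%) for these 2 sets. At 25 or over it was 9 of 65 (13.8%) against 58 of 9785 (0.593%). In the other direction 4 of 433 lost regions without a shCtrl PolII peak gained one in both shHDAC6 lists (0.924%), against 2.69% of all shCtrl ATAC regions. The shHDAC6 PolII lists were shorter, with 19519 and 19556 peaks against 21570 and 21327, and kept 72.7% and 75.1% of their peak numbering against 56.6% and 50.6%, and their part in the result was not tested. Leaving out any 1 of the 4 PolII lists gave 18.8% to 23.3%, with 2.37% to 2.63% for all shCtrl regions, but at a −log10 q of 5 or more 0 of 28 lost regions lost PolII, against 0.978% of all shCtrl regions.

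**Figure D4:**
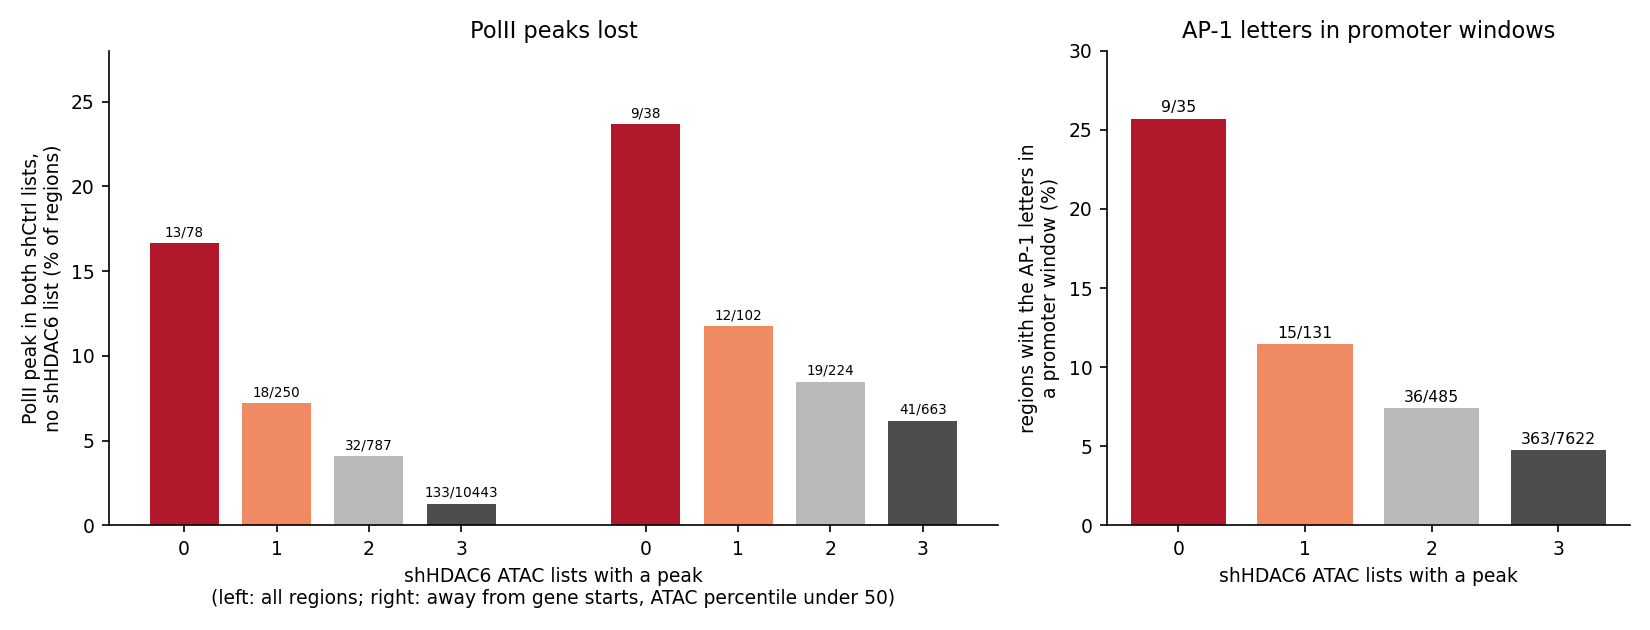
Left, share of regions with a PolII peak in both shCtrl lists that had none in either shHDAC6 list (%), by the number of shHDAC6 ATAC lists with a peak, for all regions and for regions away from gene starts with an ATAC percentile under 50. Right, share of regions with the AP-1 letters TGANTCA in a promoter window (%), by the same number. Counts stand above the bars, and all 3 series are highest at 0 lists and lowest at 3.

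Where PolII peaks remained in all 4 lists, their fold was compared before and after knockdown. At 60 lost regions the median log2 ratio of mean PolII fold, shHDAC6 over shCtrl, was 0.10 (quartiles -0.19 and 0.29), against 0.17 over 11206 shCtrl regions, and 25 (41.7%) had a lower fold after knockdown against 33.3%. Away from gene starts at an ATAC percentile under 50 the median was -0.10 over 25 lost regions. It was -0.03 over 80 regions in 1 shHDAC6 ATAC list, -0.001 over 193 in 2 and 0.07 over 593 in 3. Over all 891 it was 0.04, and the quartiles of these sets overlap. The fold was lower in 15 of the 25 (60%), against 43.7% of the 593. Both shHDAC6 folds lay below both shCtrl folds in 48% against 29.0%, and above both in 24% against 43.2%. These differences were not tested.

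The 13 regions that lost both marks include distal regions near known genes. CYP1B1, a cytochrome P450 that oxidizes steroids and hydrocarbons, lies 70382 bp from its region (chr2:38146533-38147419). That region had 7, 7 and 8 ATAC reads, PolII folds of 2.88 and 3.33 in the shCtrl lists, peaks in 3 of 3 control and 3 of 3 inhibitor ATAC lists and HDAC6 peaks in 3 of 4 control lists. BDNF had PolII folds of 2.63 and 3.08, SMOX, spermine oxidase (chr20:4135195-4136162), 2.4 and 2.58, ZFHX3, a zinc finger homeobox factor, 3.49 and 3.56 inside the gene, and ASRGL1, an asparaginase, 3.51 and 3.52. The starts of LENEP (11, 12 and 13 ATAC reads, PolII folds 2.92 and 2.66) and FAM163B (11, 12 and 13 reads, folds 2.86 and 2.31) also lost both, and the LENEP window holds one of the AP-1 sites shown above. CCDC167 had the weakest PolII peaks of the 13, with folds of 2.13 and 1.97. LOC107985876 had folds of 3.03 and 2.95, and the other 4 regions had no protein-coding gene within 100 kb. All 13 had PolII peaks below the median fold of both shCtrl lists, 3.75 and 3.88. The 4 regions that gained PolII were near TLN2, in BPIFB1 and at the starts of AMPD3 and SV2C, a synaptic vesicle protein, with folds of 2.05 to 3.05 in the shHDAC6 lists.

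**Figure D5:**
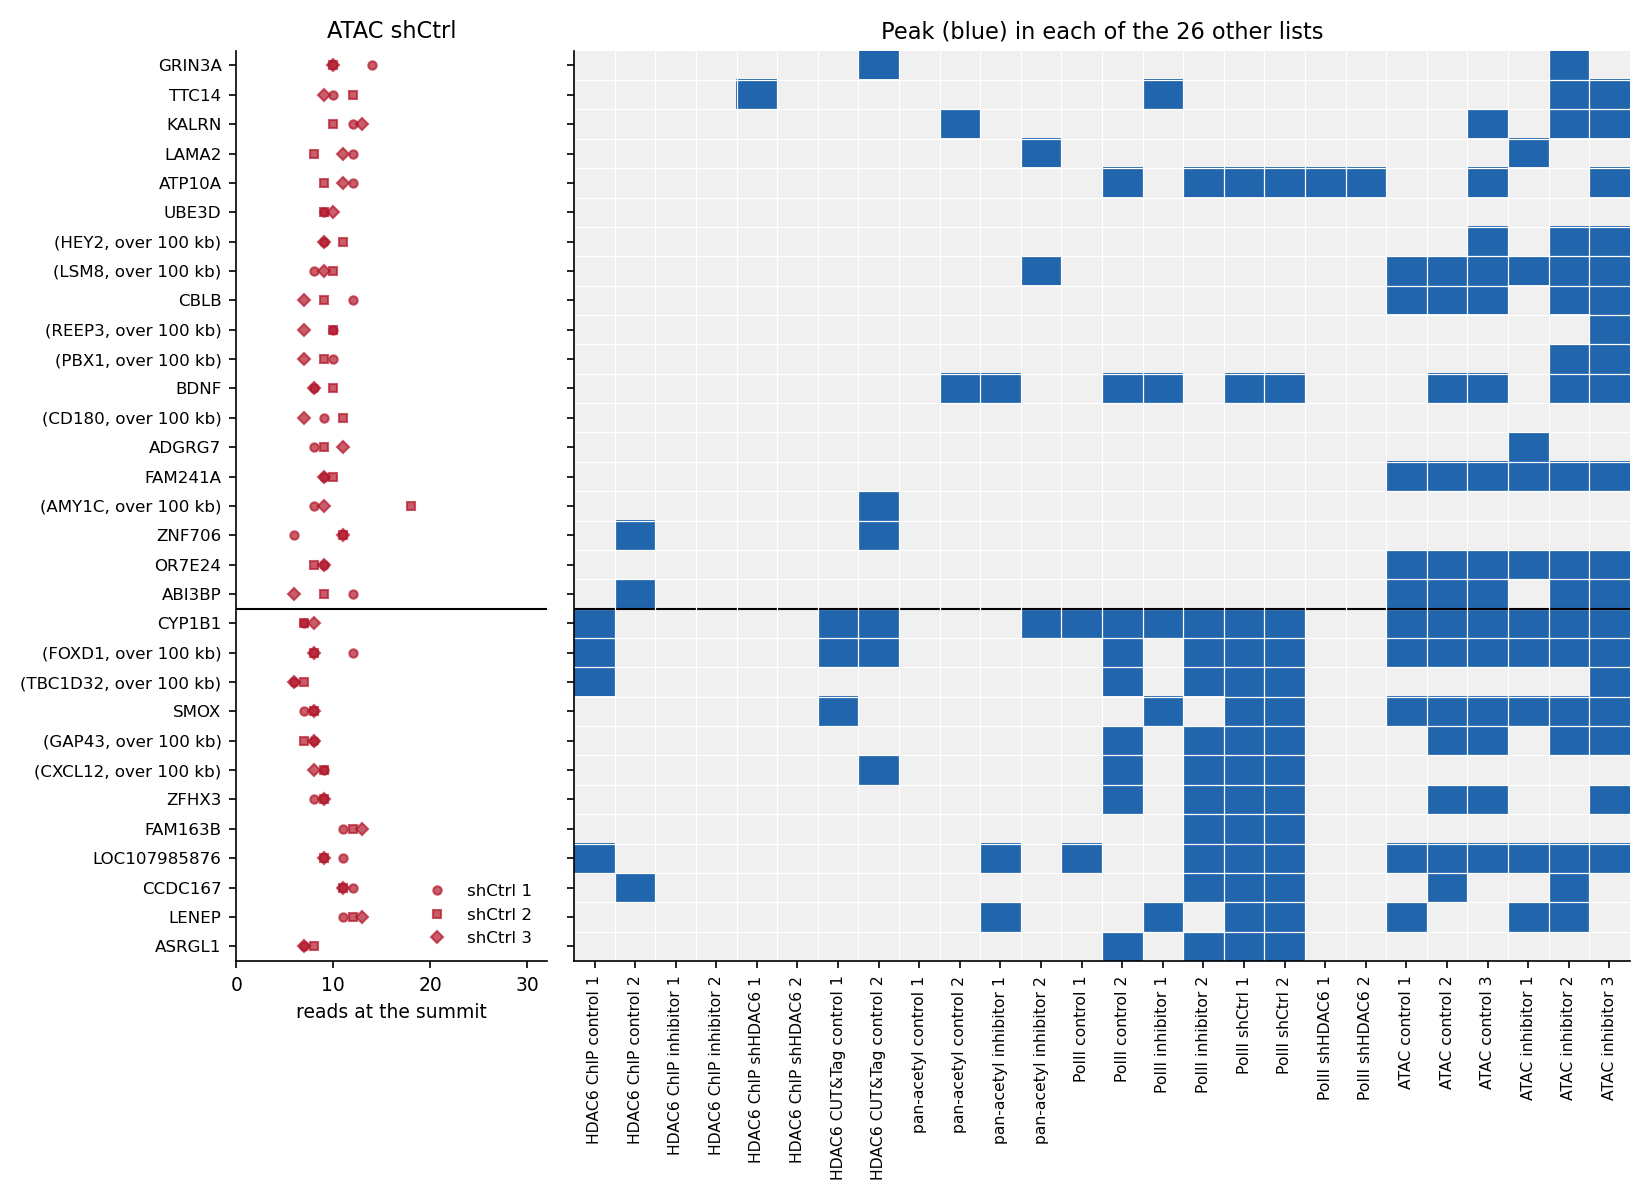
Lost regions of highest mean percentile, 19 of the first 20 (above the black line) and the regions that also lost PolII (below it; BDNF is in both and stands above), named by the nearest protein-coding gene. The left panel gives reads at the summit in the 3 shCtrl ATAC lists, the right panel a peak (blue) or none in each of the 26 other lists. Of the upper regions shown only ATP10A and BDNF have PolII in both shCtrl lists, and the lower ones all have it there and in neither shHDAC6 list.

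By the same kind of rule, loss with the inhibitor in parental cells was rare over all shCtrl regions, 15 of 13202. Of 141 lost regions with a peak in all 3 control ATAC lists, 0 had none in the 3 inhibitor lists, against 0.114% of all shCtrl regions. A count of 0 allows up to 2.13% (3 counts of the total, counting error only). It thus cannot tell the lost regions from all shCtrl regions. Of 151 without a control peak 3 (1.99%) gained one in all 3 inhibitor lists, against 4.06%. At 125 lost regions with a peak in all 6 lists, the median log2 ratio of mean fold, inhibitor over control, was 0.09, against 0.06 over 12392 shCtrl regions. Parental lists 2 and 3 kept 3.92% and 3.90% of their peak numbering in control and 21.2% and 21.3% with the inhibitor, and the part of these longer inhibitor lists in the result was not tested. Pan-acetyl peaks were gained with the inhibitor at 13 of 481 lost regions (2.70%), against 22% of all shCtrl regions. The 2 sets differ in position, with 9.98% and 48.1% at gene starts. Pan-acetyl inhibitor list 1 covered 86.0% of all shCtrl regions at starts and 22.7% away from them, and no gain by position is given here. PolII was lost with the inhibitor at 1 of 39 lost regions (2.56%), against 0.165%, and gained at 1 of 379 (0.264%), against 0.823%. Both control HDAC6 ChIP lists had a peak at 7 lost regions, and all 7 lacked one in the inhibitor lists, as did 90% of all such shCtrl regions, where these inhibitor lists held only 3256 and 235 peaks. HDAC6 peaks in shHDAC6 cells were at 6 lost regions in each list (1.15%), against 1.84% and 1.57% of all shCtrl regions, and no shCtrl HDAC6 list was used here for comparison.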

How the data were processed

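ATAC-seq, ChIP-seq and CUT&Tag peak lists of MDA-MB231 cells were used, 32 lists in all, and 9 further samples, such as inputs, have no list here. Tools listed in the submitters' processing notes, without settings or roles, are MACS2 2.2.7.1, Bowtie2 2.4.4, Trim Galore 0.6.7, ChIPseeker 1.28.2, SAMtools 1.13 and deepTools 3.5.1, and the builds listed are GRCh38 and hg38. Each deposited list gives, for every peak of 1 library, the authors' score, fold enrichment at the summit, −log10 p and −log10 q, in the layout of MACS2 output. The authors' deposited ATAC lists of the hairpin cells keep only peaks with a −log10 p of at least 5, and gaps in their peak numbers show that peaks were removed after numbering, by a step not given in the sources used here.

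From these, peaks overlapping by 1 bp or more were merged, and reads at each summit were recovered from the fold and −log10 p as the whole number that fits both within 0.005. A list's percentile is the rank of a peak's fold in that list. A gene start is within 1 kb, and genes were named only within 100 kb. Presence of a peak was compared by counts, peak numbers by an exact permutation test. The genes named are the 20 lost regions and 15 gene starts of highest mean percentile, the 5 with peaks in most other lists, pairs within 100 kb, regions with HDAC6 in 3 or 4 control lists or with PolII lost or gained, and members of 16 gene lists. Regions of 1 named gene are not reported here. The regions, lists and motifs were chosen with earlier results of these data known. Alternatives were a −log10 q of 5, equal list lengths, other overlaps, cluster gaps and leaving out each list. The recovery and the rule were run on simulated data. The simulated lists for the rule missed no kept region, so they do not test peaks missed near the calling floor. Python 3.11.15, numpy 2.4.6, scipy 1.17.1, pandas 2.3.3 and matplotlib 3.10.9 were used. The read depth of the libraries is unknown.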

Additional observations from a re-analysis of the deposited data

How the results depend on the processing

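The number of lost regions depended on the calling threshold. It was 212 at a −log10 q of at least 5 (13 shared with the 521) and 342 with lists of equal length (215 shared), and gained regions numbered 301 with equal lengths. With at least 10 reads in each list, added after seeing the data, 84 were lost and 53 gained. Leaving out 1 list gave 746 to 1472 lost and 339 to 654 gained regions, since fewer lists must then meet the rule. Regions in clusters were 1.73% with gaps of up to 250 kb and 4.61% with 2 regions as a cluster, against 0.

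At a −log10 q of at least 5 in the other lists, the share of lost regions with a peak was 64.9% for any parental ATAC list, 16.7% for PolII, 1.34% for pan-acetyl and 0.384% for HDAC6. PolII was then lost at 0% and gained at 0.204%, against 0.978% and 4.81% of all shCtrl regions. Within 500 bp, pan-acetyl peaks were at 32.4%. For the shares with a peak at these settings, the same share over all shCtrl regions was not computed. In all these cases the cause was not tested.

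With the replicate number as a block, the difference in peak number was -2697.67 (exact paired permutation test, two-sided p = 0.25, the smallest possible with 3 pairs). The labels do not say whether lists of the same number were paired. The mean Jaccard index between the groups was 0.505 for lists of the same number and 0.505 for the others. Leaving out 1 list gave differences of -4308.83 to -1192.33.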
